A study of Drosophila melanogaster with 8 samples.

Results

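The probe sets described here were those whose platform annotation lists a copy of Hsp70 or the small heat shock gene Hsp22. These were 7 of the 18769 probe sets on the array that are not controls, 5 for Hsp70 copies and 2 for Hsp22, and they cover 7 of the 12549 genes that the annotation lists. All 7 probe sets were also annotated to at least 1 further gene, so no copy had a probe set of its own. The genes were chosen by their short day and long day expression values on these same arrays, so their differences between photoperiods are given as a description, and nothing is read from the calls of the array-wide comparison that fall on them.

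The samples were heads of Canton_S females, a laboratory wild-type strain of Drosophila melanogaster. From shortly after eclosion both groups lived for 12 days at 12.5 °C, in cycles of 16 h light to 8 h dark (long day) or of 10 h light to 14 h dark (short day), and heads were taken at 4 h into the light phase. These figures are those of the labels, and the methods of the study give a shorter short day and a wider window. There were 4 arrays per photoperiod, 1 for each sample. Expression is on a log2 scale from GCRMA, which corrects background by probe sequence and normalizes the arrays by quantiles. The labels do not say whether the samples came from separate rearing vials, so the spread between them may be partly technical.

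Hsp70 is the main chaperone that Drosophila cells make after heat and other stress. It binds unfolded proteins and, with co-chaperones of the DnaJ type and nucleotide exchange factors, uses ATP to release them for refolding. Its genes are nearly silent in unstressed cells and are switched on by the heat shock factor Hsf, and near-identical copies lie in a pair of clusters on chromosome arm 3R. Hsp22 encodes a small heat shock protein that works in mitochondria, holds unfolded proteins without ATP and is known to rise in ageing flies. Constitutive relatives of Hsp70, the Hsc70 proteins, do the same work in unstressed cells.

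In RefSeq's gene order (Drosophila Release 6) Hsp70Aa and Hsp70Ab are direct neighbours, and 119 genes lie between Hsp70Ab and Hsp70Ba. Within the second cluster 1 annotated gene lies between each of Hsp70Ba, Hsp70Bbb, Hsp70Bb and Hsp70Bc and the next. Of the probe sets, 1639571_s_at stood for Hsp70Aa and Hsp70Ab, 1626821_s_at and 1629827_s_at for Hsp70Ba, Hsp70Bb, Hsp70Bbb and Hsp70Bc, and 1632841_x_at for Hsp70Bb and Hsp70Bc. Another, 1626832_at, listed Hsp70Bb, Hsp70Bc and the unrelated gene CG31343. The suffix _s_at marks probes shared by related transcripts, and _x_at marks a set that holds probes which can bind other sequences. Both Hsp22 probe sets, 1629061_s_at and 1630487_s_at, also listed CG4456, which has Hsp67Bb among its RefSeq synonyms. The annotated span of Hsp22 lies 100% inside that of CG4456, so the transcripts of these genes cannot be told apart here. No coordinates are given, because the values name no genome build.

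Of the 7 probe sets, 4 had a mean of 4 or more over the 8 arrays and could be compared. All 4 were higher in short days, the probe set of the Hsp70A copies the most. The remaining 3 sat at or close to 2.152, the lowest value in the table, and carried no usable difference.

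The probe set of Hsp70Aa and Hsp70Ab differed the most between photoperiods. The values of 1639571_s_at were 5.54, 5.63, 5.81 and 5.97 in long day replicates 1 to 4 and 7.01, 7.30, 7.52 and 7.44 in short day replicates 1 to 4. The groups did not overlap, and the lowest short day array lay 1.04 above the highest long day array. The mean was 5.74 ± 0.19 in long days and 7.32 ± 0.23 in short days (SD, n = 4 each). The difference of 1.58 on the log2 scale corresponded to a 2.98-fold higher level and ranked 5 among the rises of all probe sets.

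The transcripts of the Hsp70B cluster were also higher in short days. With the probe set for all 4 Hsp70B copies, 1626821_s_at, the long day values were 5.30, 4.90, 5.54 and 5.32 and the short day values 5.73, 5.90, 6.36 and 6.12. These groups did not overlap either, with 0.19 between the highest long day and the lowest short day array. The mean rose from 5.26 ± 0.27 to 6.03 ± 0.27, a difference of 0.76 or 1.70-fold (SD, n = 4 each).

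The probe set for Hsp70Bb and Hsp70Bc alone, 1632841_x_at, gave 5.37, 5.19, 5.23 and 5.34 in long days and 5.72, 6.00, 6.51 and 6.61 in short days. The long day arrays lay within 0.18 of each other and the short day arrays within 0.89. The means were 5.28 ± 0.09 and 6.21 ± 0.42 (SD, n = 4 each), a difference of 0.93 or 1.90-fold, and the groups were 0.35 apart at their closest. Since Hsp70Bb and Hsp70Bc are listed for both probe sets, these are not separate measurements of different copies.

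The transcripts of Hsp22, with CG4456, were also higher in short days, but here the groups overlapped. The values of 1629061_s_at were 10.23, 9.91, 10.13 and 10.84 in long days and 10.78, 11.23, 11.38 and 11.36 in short days. Long day replicate 4 lay above short day replicate 1, and each of the other 3 long day arrays lay below all short day arrays. The mean was 10.28 ± 0.40 in long days and 11.19 ± 0.28 in short days (SD, n = 4 each), a difference of 0.91 or 1.88-fold.

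The 3 dim probe sets listed copies that the other probe sets also list. The probe set shared with CG31343 was at 2.152 on all 8 arrays. The second set for the 4 Hsp70B copies, 1629827_s_at, was at 2.159 on 7 arrays and at 2.216 in short day replicate 1. The second set for Hsp22, 1630487_s_at, ranged from 2.158 to 2.181 with its highest value in short day replicate 3. For Hsp70B and for Hsp22, probe sets with an identical gene annotation thus gave a difference in one case and the lowest value in the other.

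**Figure D1:**
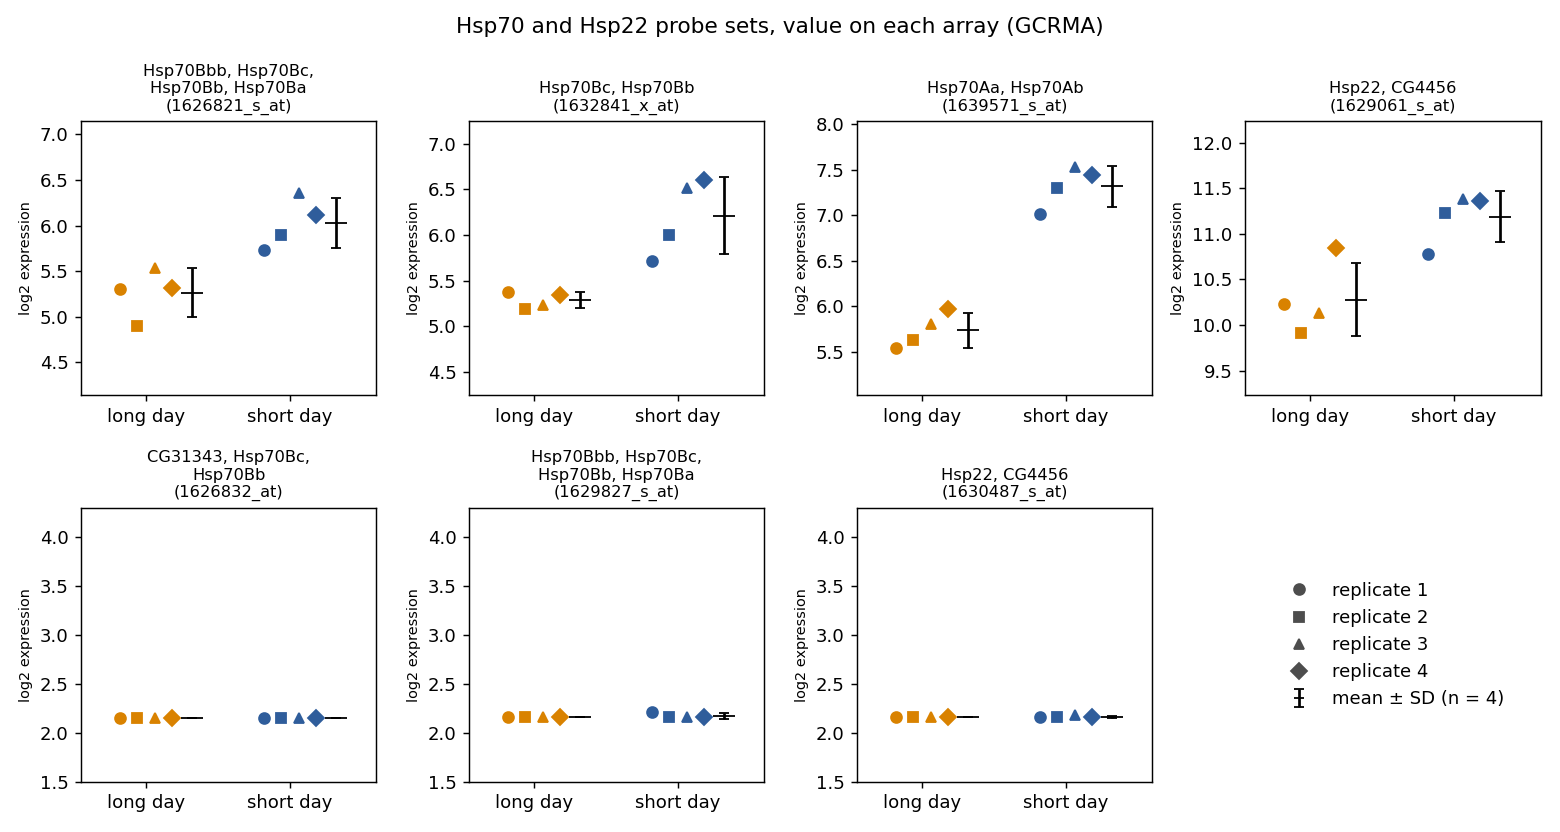
Log2 expression (vertical axis, GCRMA) of each Hsp70 and Hsp22 probe set on the 4 long day (orange) and 4 short day (blue) arrays, with the symbol giving the replicate and the black bar the mean ± SD. The upper panels hold the 4 probe sets that could be compared, each on an axis of equal height, and the lower panels the 3 at the bottom of the scale. Short day values lie above all long day values for the 3 Hsp70 sets, and the Hsp22 groups overlap between 10.78 and 10.84.

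Taken within each array, the Hsp70A probe set moved further than the Hsp70B sets. The value of 1639571_s_at minus that of 1626821_s_at was between 0.24 and 0.74 in long days and between 1.16 and 1.40 in short days, a shift of 0.81 on the log2 scale. Set against 1632841_x_at it was between 0.17 and 0.63 in long days and between 0.83 and 1.30 in short days, a shift of 0.65. In both cases the groups did not overlap. The Hsp70B sets set against each other, 1632841_x_at minus 1626821_s_at, overlapped, from -0.31 to 0.29 in long days and from -0.01 to 0.49 in short days. The level of one probe set cannot be set against that of another. The shifts come from the values by which the genes were chosen and are given as a description. No share over other pairs of probe sets was computed. Probe sets can also differ in response, since 1626821_s_at and 1629827_s_at list the same copies and gave differences of 0.76 and 0.01. The larger shift of 1639571_s_at thus does not show that the Hsp70A copies themselves moved further.

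All probe sets were compared between short and long days with limma, and those with an unadjusted p under 0.01, the threshold of the study, are said to be called. This held for 2.76% of the 18769 probe sets, or 518, and calls higher in short days made up 1.52%, or 3.11% of the 9107 probe sets of mean 4 or more. Of the 7 Hsp70 and Hsp22 probe sets 4 were called, all higher in short days, which follows from how the genes were picked and is read no further. Leaving out 1 array at a time, the number called was 1 without long day replicate 2 or short day replicate 3, 4 without short day replicate 1, and 2 without any other array. It was 1 with array weights and 2 with the replicate number as a block. Groups did not overlap, with short days higher, in 3 of the 7, beside 3.22% of all probe sets and 6.41% of those of mean 4 or more. After Benjamini-Hochberg adjustment 1 of all probe sets, or 0.00533%, passed 0.05 in limma, where 1655 had an unadjusted p under 0.05. Among all probe sets of mean 4 or more the median size of the difference was 0.10.

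**Figure D2:**
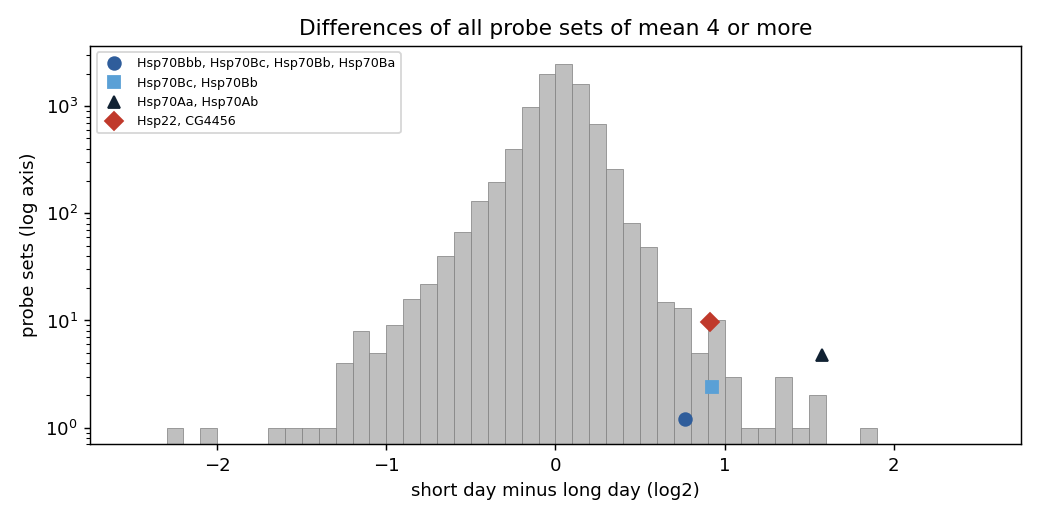
Number of probe sets (vertical axis, log scale) by short day minus long day difference (horizontal axis, log2, bins of 0.1) for the 9107 probe sets of mean 4 or more. The 4 symbols mark the Hsp70 and Hsp22 probe sets at 0.76, 0.91, 0.93 and 1.58 and have no meaning on the vertical axis. The median of all differences was 0.03.

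The arrays were alike in overall level, with medians between 8.44 and 8.52 where the mean was 4 or more. The photoreceptor markers trp, trpl and chp were high, the lowest being at 12.28. Of the neuron markers, elav was at 10.87 or above and nSyb at 10.99 or above, while brp was between 5.48 and 6.37. Long day replicate 2 had the lowest value of each, and its mean of the measured neuron markers, 9.11, was the lowest of all arrays. Without that array the differences were 1.54 for Hsp70A, 0.64 for the 4 Hsp70B copies, 0.90 for Hsp70Bb and Hsp70Bc and 0.79 for Hsp22. The 4 measured ovary markers were at or near the lowest value on all arrays, at 2.323 or below. Short day replicate 3 stood apart by flight muscle transcripts of the thorax: the mean of the 5 measured muscle markers was 11.97 there and between 7.28 and 7.53 in long days. The muscle proteins fln (flightin), Act88F (flight muscle actin) and TpnC4 (a troponin C) were at 11.71, 13.10 and 10.36 on that array and at most 2.69, 8.93 and 2.152 on the others. The other 2 muscle markers moved with photoperiod instead: Mlc2, a myosin light chain, was between 13.30 and 13.53 in long days and between 13.77 and 14.06 in short days, and up, a troponin T, between 10.10 and 10.56 and between 10.64 and 11.10, so that neither overlapped. Their part in the Hsp70 differences was not tested. That array also had the highest value of 3 of the 4 probe sets, 1626821_s_at, 1639571_s_at and 1629061_s_at. Without it the differences were 1.51 for Hsp70A, 0.65 for the 4 Hsp70B copies, 0.83 for Hsp70Bb and Hsp70Bc and 0.85 for Hsp22. Of the 6 fat body markers, the yolk protein genes Yp1, Yp2 and Yp3 and the larval serum protein gene Lsp2 were lower on all short day than on all long day arrays, while apolpp (14.63 to 14.77 in long days, 14.57 to 14.75 in short days) and FASN1 (14.29 to 14.46 and 14.34 to 14.49) overlapped. The mean of all 6 was between 14.80 and 14.86 in long days and between 14.26 and 14.59 in short days, and the part of these markers in the Hsp70 differences was not tested. In whole heads fewer cells of a type and less RNA per cell cannot be told apart. As a measure of RNA integrity, the signal at the 3′ end minus that at the 5′ end of the control transcript GAPDH was between 0.98 and 1.04 in long days and between 0.97 and 1.16 in short days. For actin these ranges were 1.91 to 2.43 and 1.89 to 2.40, and for eIF-4a 1.57 to 2.10 and 1.92 to 2.21, so that the groups overlapped for each control.

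Within short days the 4 probe sets moved in step. Short day replicate 1 had the lowest value of all 4, at 0.30, 0.49, 0.31 and 0.41 below the short day mean for 1626821_s_at, 1632841_x_at, 1639571_s_at and 1629061_s_at. Short day replicate 2 came next in all 4, and replicates 3 and 4 were the highest. In long days there was no such common order, since replicate 2 was lowest for 3 probe sets and replicate 1 for Hsp70A. Over the deviations of the 8 arrays from their photoperiod means, which did not enter the choice of the genes, the 6 pairs of probe sets correlated with r between 0.57 and 0.82. The closest pair was Hsp70A and Hsp22, with r = 0.82 and Spearman's rho = 0.88. In an exact permutation test of the arrays within each photoperiod (two-sided, 576 permutations) this gave p = 0.0260 for r and 0.0191 for rho, and 0.0781 and 0.115 after adjustment over the 6 pairs. The smallest permutation p for r, 0.0139, belonged to 1632841_x_at and 1629061_s_at (r = 0.62, rho = 0.67), also 0.0781 after adjustment. None of the 6 passed 0.05 after adjustment. Without the 2 arrays farthest from the median of the first probe set, r was 0.87 for Hsp70A and Hsp22. For the other 5 pairs it was between -0.12 and 0.48. Leaving out the farthest arrays also narrows the spread, so a lower r does not show that a relation rests on them. The pairs share arrays, and the Hsp70B sets share genes.

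**Figure D3:**
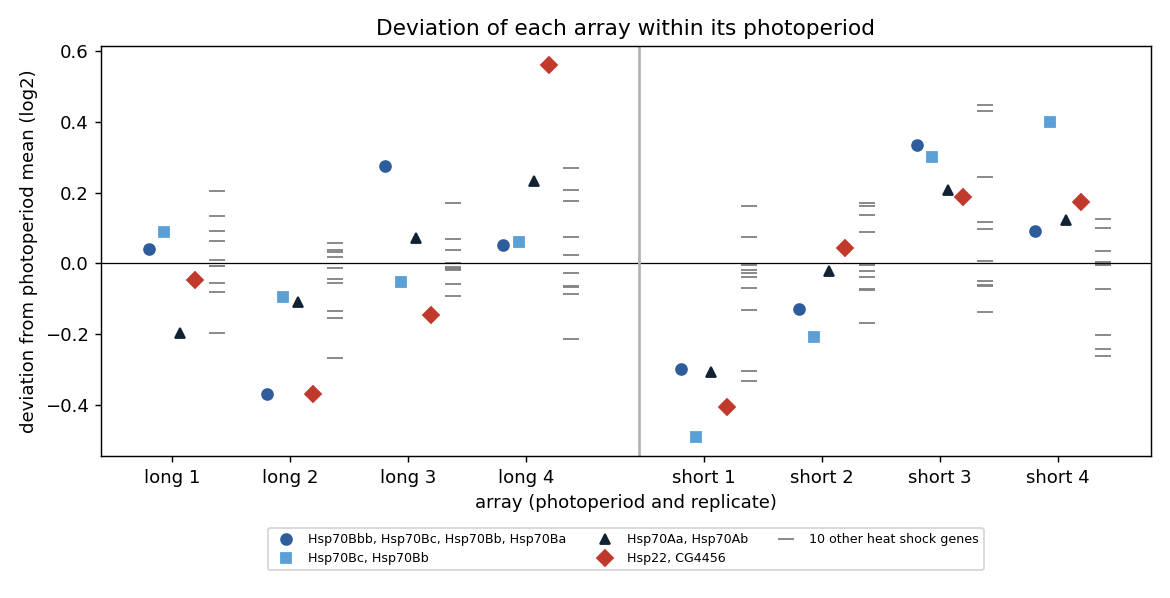
Deviation of each array from the mean of its photoperiod (vertical axis, log2) for the 4 Hsp70 and Hsp22 probe sets (symbols) and for the 10 other heat shock genes of mean 4 or more (grey dashes), with the arrays along the horizontal axis. The 4 probe sets lie below 0 in short day replicate 1, as do 8 of the 10 other genes, while l(2)efl and CG7409 lie above 0. The 4 probe sets lie above 0 in short day replicates 3 and 4, as do 6 and 4 of the 10 other genes.

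To see whether other heat shock genes differed with photoperiod, 18 further genes that are heat-inducible or encode small heat shock proteins or partners of Hsp70 were examined. Of these, 12 had a probe set of their own and 10 reached a mean of 4. In limma 1 rose and 1 fell, and 10 were not called. Over all genes, each taken by its brightest probe set, 3.48% were called, 1.79% higher and 1.69% lower in short days. When only probe sets with a mean of at least 4, or of at least 6, were fitted, other members were called, Hsp26 and l(2)efl, both higher, and CG7409 and Stip1 were not. Without short day replicate 1 the called genes were Hsp26 and Hsp68, both higher. An unadjusted p under 0.05 was held by 5 of the 12 in limma, beside 11.1% of all genes. The shares over all genes include those of mean under 4, so they are not matched to this list of mostly brighter genes. None of the 12 passed 0.05 after Benjamini-Hochberg adjustment. The median difference of the 10 was 0.08, beside 0.02 over the 7348 genes of mean 4 or more. Hsp83, Hsp23, Hsp67Ba, Hsp67Bc, CG14207 and lncRNA:Hsromega were not tested, for want of a probe set listing them alone.

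The called genes of this list changed little. CG7409, a small heat shock protein of the alpha-crystallin family, rose from 12.60 ± 0.06 to 12.75 ± 0.05 (SD, n = 4 each), a 1.11-fold difference (limma, adjusted p = 0.356). Stip1, which links Hsp70 to Hsp90, fell from 9.88 ± 0.05 to 9.71 ± 0.07, a ratio of 0.888 (limma, adjusted p = 0.309). The call of CG7409 was lost in 15 of 18 alternatives and that of Stip1 in 10 of 18. Leaving out any array other than long day replicate 2 lost the call of CG7409, and leaving out any array other than long day replicate 4 or short day replicate 3 lost that of Stip1.

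Of the genes not called, Hsp26 and Hsp68 are close relatives of Hsp22 and Hsp70. Hsp26, a small heat shock protein encoded in the same cluster as Hsp22 on chromosome arm 3L, gave 7.70, 7.65, 7.70 and 7.78 in long days and 7.91, 8.14, 8.66 and 8.14 in short days. Its groups did not overlap, yet it was not called, with a difference of 0.50 (95% interval 0.12 to 0.88, limma, adjusted p = 0.414). Hsp68, a stress-inducible member of the Hsp70 family, gave 6.93, 6.91, 6.85 and 6.78 in long days and 6.84, 7.26, 7.28 and 7.29 in short days. Short day replicate 1 lay within the long day range and the other 3 above it, and the difference was 0.30 (95% interval 0.03 to 0.57, limma, adjusted p = 0.518).

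The cluster of Hsp22 and Hsp26 also holds CG4461 and Hsp27, both small heat shock genes. CG4461 had a difference of -0.02 (95% interval -0.28 to 0.24) and Hsp27 one of -0.15 (95% interval -0.57 to 0.27), and neither was called. Hsp22 was chosen on this contrast and shares its probe set with CG4456, so the genes of the cluster are not compared with it.

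Of the remaining members, the small heat shock gene l(2)efl had a difference of 0.40 (95% interval 0.09 to 0.71, limma, adjusted p = 0.429). A dimmer probe set of l(2)efl gave 0.53 (limma, adjusted p = 0.479), and the last was at the lowest value of the table on all arrays. The difference of starvin (stv), a nucleotide exchange co-chaperone of the BAG family, was 0.30 (95% interval -0.01 to 0.61). DnaJ-1, the heat-inducible DnaJ partner of Hsp70, lay at 11.98 ± 0.15 in long days and 12.00 ± 0.03 in short days, a difference of 0.02 (95% interval -0.16 to 0.20). For the polyubiquitin gene Ubi-p63E the difference was -0.05.

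The constitutive Hsc70 genes, Hsf and co-chaperones held no call in limma among 18 genes with a probe set of their own, beside 3.48% of all genes. The same held without moderation of the variances. Of the 18, 4 had an unadjusted p under 0.05 in limma, beside 11.1% of all genes. Both shares include genes of mean under 4, so they are not matched to this list of mostly brighter genes. The median difference of the 17 genes of mean 4 or more was 0.05. Hsc70-4, the main cytosolic form, lay at 14.59 ± 0.08 in long days and 14.60 ± 0.05 in short days (SD, n = 4 each), with a difference of 0.01 (95% interval -0.09 to 0.12). Hsc70-3, the form of the endoplasmic reticulum, had a difference of -0.23 (limma, adjusted p = 0.445) and the mitochondrial Hsc70-5 one of 0.10 (adjusted p = 0.797).

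Hsc70-1 had the largest difference of this list, 0.51 (95% interval 0.07 to 0.95, limma, adjusted p = 0.486). Its values were 8.34, 8.34, 8.24 and 8.09 in long days and 8.77, 8.82, 9.17 and 8.30 in short days, and short day replicate 4 lay within the long day range. The other 2 probe sets of Hsc70-1 gave differences of 0.15 and 0.30. The factor Hsf itself had 10.28 ± 0.06 in long days and 10.38 ± 0.07 in short days, a difference of 0.11 (limma, adjusted p = 0.573). The DnaJ proteins mrj and Droj2 had differences of 0.10 and 0.12 (limma, adjusted p = 0.494 and 0.536).

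**Figure D4:**
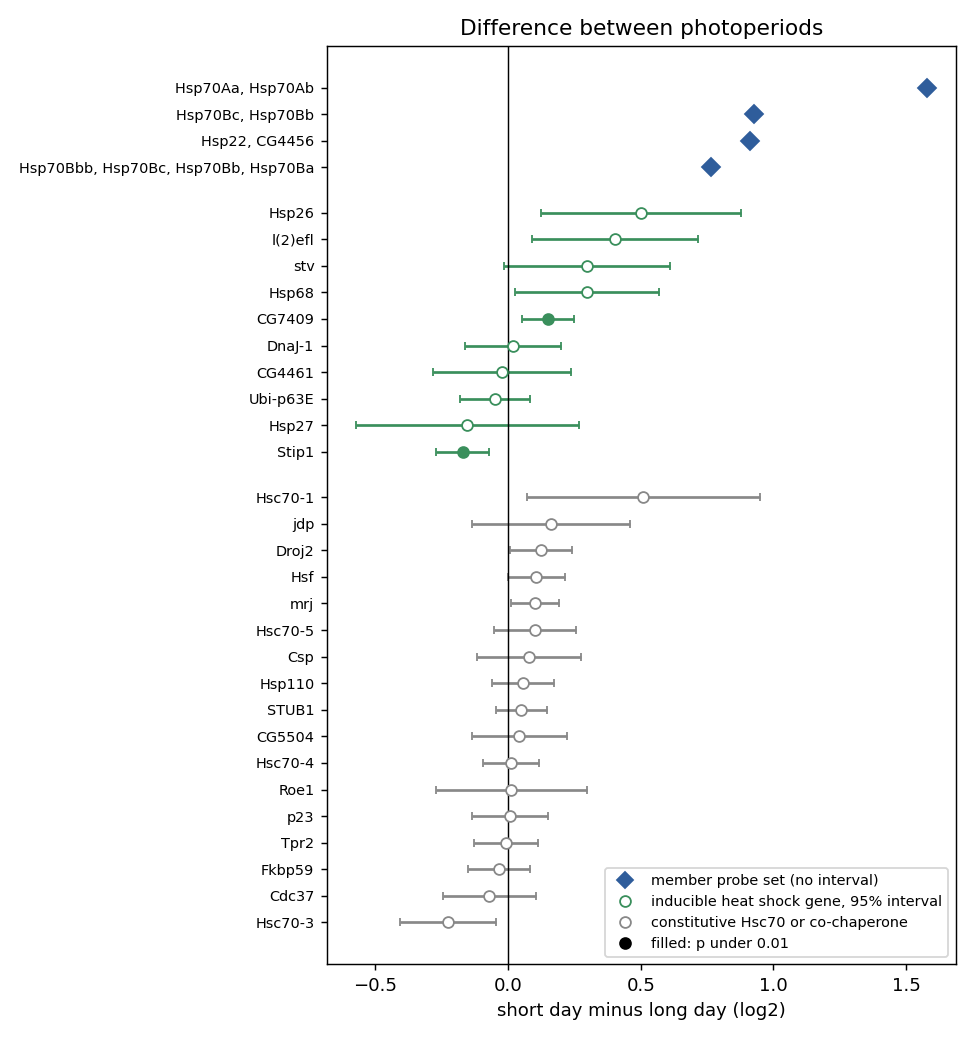
Short day minus long day difference (horizontal axis, log2) of the 4 Hsp70 and Hsp22 probe sets (diamonds, with no interval), of 10 other heat shock genes (green) and of 17 Hsc70 and co-chaperone genes (grey), with 95% intervals from limma. Filled circles mark the called genes CG7409 and Stip1. With each gene at its brightest probe set, the largest differences of the other genes were 0.50 for Hsp26 and 0.51 for Hsc70-1. Their intervals reach up to 0.88 and 0.95. The diamonds were chosen on this contrast, so their place beside the other genes is not read as a result.

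Among 24 genes with a probe set of their own that respond to cold or other stress, none was called in limma, beside 3.48% of all genes. The same held without moderation. None had an unadjusted p under 0.05 in limma, beside 11.1% of all genes. The genes of this list with a mean under 4 lay low on the scale and could hardly have been called. Nothing is read from the absence of calls in so short a list. The median difference of the 17 genes of mean 4 or more was 0.00. The smallest p belonged to Prx6c, a peroxiredoxin that removes peroxides, with a difference of -0.41 (limma, adjusted p = 0.616). The calcium-binding protein regucalcin had a difference of 0.33, its relative smp-30 one of 0.20 and the mitochondrial superoxide dismutase Sod2 one of 0.12. Fst (Frost), a gene known to be induced after cold, was at the lowest value of the table to within 0.01 on all arrays.

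The genes whose deviations within the photoperiods were most like the mean of the 3 Hsp70 sets were searched among 6950 probe sets of 1 gene with a mean of 6 or more. They were CG5033 (r = 0.95, rho = 0.98), Nop60B, a pseudouridine synthase of ribosomal RNA (r = 0.93, rho = 0.88), LeuRS-m, the mitochondrial leucyl-tRNA synthetase (r = 0.92, rho = 0.86), the splicing factor Sf3b3 (r = 0.92, rho = 0.86) and the kinase Wnk (r = 0.91, rho = 0.86), each over the 8 arrays. As the highest of so many they carry no test. Without short day replicates 1 and 3, which lay farthest from the median, r was between 0.84 and 0.98. Their differences between photoperiods are not set against those of the Hsp70 sets, which were chosen on that contrast. Nop60B and Sf3b3 fell by 0.39 and 0.18 (both called, limma, adjusted p = 0.362 and 0.217). The other 3 had differences of -0.18, 0.02 and 0.11 and were not called. Of the 10 heat shock genes above, 7 correlated positively with the Hsp70 mean and 3 negatively. Hsp26 gave r = 0.78 and rho = 0.69 (exact permutation p = 0.0746 and 0.0677, adjusted over the 10 genes 0.249 and 0.260), and without short day replicates 1 and 3 its r was 0.33. DnaJ-1 gave r = 0.50 and rho = 0.79 (exact permutation p = 0.0278 and 0.00521, adjusted 0.249 and 0.0521), with r = 0.68 without those arrays. In the other direction l(2)efl gave r = -0.69 and rho = -0.76 (exact permutation p = 0.104 and 0.0781, adjusted 0.260 and 0.260), with r = -0.73 without those arrays, and CG7409 gave r = -0.69 and rho = -0.62 (exact permutation p = 0.0573 and 0.139, adjusted 0.249 and 0.347), with r = -0.41. None of the 10 passed 0.05 after adjustment.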

How the data were processed

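Per the labels and the methods, the authors made biotin-labelled cRNA from Trizol-extracted head RNA, hybridized it to Affymetrix Drosophila Genome 2.0 arrays and deposited log2 expression values made with GCRMA (version not given in the sources used here). Quantile normalization hides changes of total mRNA. Array number, 4 per photoperiod, limits the precision. No batch was tested, as scan dates were not used.

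After 183 control probe sets were set aside, 18769 were compared as short day minus long day in limma 3.58.1 (R 4.3.3; lmFit and eBayes, two-sided, no block). Genes came from the platform annotation, in which 13647 probe sets had 1 gene, 402 several and 4720 none listed, so other Hsp70 probe sets may be unnamed. A listed gene was taken by its brightest probe set of 1 gene. The steps were tested on simulated data. The members and lists were chosen with earlier results of these data known. Named were all members, called list genes with up to 4 more of smallest p, and the 5 genes most like Hsp70; other genes and markers were named after their values were seen. After array values of list genes had been seen, and before the lists were tested, 5 genes that matched no probe set under older symbols were given their current ones (Stip1, Hsp110, CG5504, Prx6b and Prx6c), and Hsp67Bb was taken off its list as a synonym of CG4456. The permutation tests of deviations and the differences within arrays were added after the values were seen.

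Each result was recomputed with array weights, without moderation, with a floor of 3, with only probe sets of mean 4 or 6 and above, after quantile normalizing again, after centring on array medians, with a trend and robust variance model, with the replicate number as a block, with each array left out, long day replicate 2 with short day replicate 3 left out, and averaged probe sets. No protein, promoter or probe sequences were used here.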

Additional observations from a re-analysis of the deposited data

Results flagged for a closer look

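Among 46 groups of 4 arrays examined for the 23 named probe sets of mean 4 or more, 1 held an array that stood apart from the other 3. Hsp68 was at 6.835 in short day replicate 1 and between 7.256 and 7.293 in the other short day arrays. Chance marks about 1 in 20 such groups. The same array had the lowest short day value of all 4 Hsp70 and Hsp22 probe sets.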

How the results depend on the processing

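The differences of the 4 compared Hsp70 and Hsp22 probe sets kept their direction and moved by less than 1 SD between replicates in all alternatives that gave a value. The filters, the floor, the variance models and the replicate block could not change these differences. Only array weights, median centring, the second quantile normalization and left-out arrays could. With 1 array left out they ranged from 1.51 to 1.68 for Hsp70A, from 0.64 to 0.86 for the 4 Hsp70B copies, from 0.79 to 1.09 for Hsp70Bb and Hsp70Bc and from 0.79 to 1.10 for Hsp22. With long day replicate 2 and short day replicate 3 both left out they were, in that order, 1.47, 0.53, 0.80 and 0.73. Array weights gave 1.47, 0.58, 0.80 and 0.77. The filter at a mean of 6 removed both Hsp70B sets, which gave no value there. Of all probe sets 300 were called with the replicate block, 180 with the trend and robust variance model, and 345 to 568 with 1 array left out, the lowest count being without long day replicate 3. Same-numbered arrays did not deviate together, with r of 0.01, -0.23, -0.14 and 0.17 for the 4 numbers, so a shared number was not taken as a pairing. The count that passed adjustment, 1, was 95 with the filter at 4, 141 with that at 6, 19 after median centring, 2 without short day replicate 3, and otherwise 0 or 1. The count of called heat shock genes, 2 (CG7409 higher, Stip1 lower), was 2 with either filter but for Hsp26 and l(2)efl, both higher. It was 1 with the replicate block (l(2)efl, higher) and 1, Stip1, with median centring, second quantile normalization, no moderation, or long day replicate 2 and short day replicate 3 left out, 0 with the trend and robust model, and 0 to 2 with 1 array left out, when Hsp26, Hsp68 or l(2)efl entered without short day replicate 1, 3 or 4. For the Hsc70 and co-chaperone genes the count of 0 was 1 with array weights (mrj) and 1 with the filter at 6 (Hsc70-1), and 0 to 1 with 1 array left out. For the cold and stress genes it was 0 to 1 with 1 array left out.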
